A study of Mus musculus with 27 samples.

Results

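The genes described here are those of hepatocyte growth factor (HGF) and macrophage-stimulating protein (MSP) activation in the mouse liver. They are *Hgfac*, which encodes HGF activator, the proteases *Hpn* and *St14*, the ligands *Hgf* and *Mst1*, their receptors *Met* and *Mst1r*, and the inhibitors *Spint1* and *Spint2*. The rule that names them is their role, earlier results of these data were known when they were chosen, and these 9 genes are among the 23191 gene symbols of the count table. Liver RNA-Seq was available from 27 male C57BL/6J mice, whole-body HGFAC-KO mice and littermate controls, which were 8 weeks old at the start and spent 4 weeks on their diet. HGFAC-KO mice, made by CRISPR/Cas9, carry a deletion in *Hgfac* in every tissue that takes away the latter part of exon 1 and the whole of exon 2. On chow there were 7 controls beside 6 HGFAC-KO mice, and on HF/HS diet, which is rich in fat and sucrose, 7 of each genotype. Whether the mice of a group came from separate litters or cages is not stated, so p-values cover the spread between these mice.

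HGF and MSP are secreted as single-chain precursors that do not activate their receptors until a serine protease cuts them into 2 chains. HGF activator, itself secreted by the liver as a zymogen and activated by thrombin, cuts both, and hepsin and matriptase on the cell surface can do so too. The cut ligands bind the receptor tyrosine kinases MET and RON, while the Kunitz-type inhibitors HAI-1 and HAI-2 restrain the proteases. In liver, *Hgf* is known as a gene of stellate cells and other nonparenchymal cells, whereas *Mst1* and *Hgfac* are hepatocyte genes.

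*Hgfac* (ENSMUSG00000029102) lies on chromosome 5 of GRCm38 (chr5:35041509-35048461, plus strand). Its main transcript, Hgfac-201, has 14 exons and 2135 bases, of which exons 1 and 2 together hold 377 (17.7%). Counts were summed over all exons, so they include reads from the exons that the HGFAC-KO allele still carries. The first of the sequences below is exon 2 (chr5:35042290-35042464), which is deleted in HGFAC-KO mice, with the study's forward qPCR primer in capitals. The next is exon 3 (chr5:35042566-35042662), which is not part of the stated deletion, with the stretch complementary to the reverse primer in capitals. Both are read along the gene, and both are coding in full. The pair is shown because a PCR with these primers needs the deleted exon, while the read count of the gene does not.
Hgfac exon 2: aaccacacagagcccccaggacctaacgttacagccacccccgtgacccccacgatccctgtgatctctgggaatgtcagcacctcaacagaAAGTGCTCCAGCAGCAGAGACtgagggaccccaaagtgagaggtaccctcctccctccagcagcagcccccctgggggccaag
Hgfac exon 3: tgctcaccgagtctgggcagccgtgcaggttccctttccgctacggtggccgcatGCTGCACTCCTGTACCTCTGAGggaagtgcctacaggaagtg

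ChREBP, a transcription factor that responds to carbohydrate, is known to bind paired E-boxes. The upstream sequences of the ligand and protease genes that were higher on HF/HS diet are shown, and pairs of E-boxes were not searched for. The RefSeq promoter table of GRCm38.p6 held 8 of the 9 genes, in 11 windows. In each window, the 250 bases before the RefSeq start were searched for the E-box CANNTG and for CACGTG, which is one form of it. Both are the same on either strand. The windows are the bases just before each RefSeq start and were not chosen from binding data, and where ChREBP binds was not analysed here. The ChREBP-bound region that the study reports near *Hgfac* lies outside the window shown. The sequences of *Hgfac* (chr5:35041259-35041508) and *Hgf* (chr5:16553245-16553494) are given on the plus strand with every CANNTG in capitals.
Hgfac upstream: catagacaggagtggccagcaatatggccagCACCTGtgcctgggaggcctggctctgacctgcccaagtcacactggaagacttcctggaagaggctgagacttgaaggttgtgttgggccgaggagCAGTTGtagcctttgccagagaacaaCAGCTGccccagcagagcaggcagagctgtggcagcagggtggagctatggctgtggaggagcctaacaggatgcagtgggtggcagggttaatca
Hgf upstream: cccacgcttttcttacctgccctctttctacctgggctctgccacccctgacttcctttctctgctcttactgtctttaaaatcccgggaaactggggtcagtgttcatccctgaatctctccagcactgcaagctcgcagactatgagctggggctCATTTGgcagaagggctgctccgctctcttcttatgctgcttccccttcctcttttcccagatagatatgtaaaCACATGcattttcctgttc

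*Hgfac* had 3 matches to CANNTG there, *Hgf* had 2 in the window shown and 0 in its other window (chr5:16553651-16553900), and *Met* had 1. Of the genes not called between diets, *Spint2* had 4, *Hpn* 2 and 3 in its windows, *Mst1* 2, *Mst1r* 2 and 1, and *Spint1* 0. A match was thus found in 9 of the 11 windows, and 66.2% of 32851 promoters of this length held at least 1. Neither of the 2 sequences shown above holds CACGTG, which 6.02% of the promoters do. Of the 11 windows, only that of *Met* held it. This is before the RefSeq start but inside the gene by the GENCODE annotation, where *Met* starts at 17463800. The windows of *Hgf* at chr5:16553651-16553900, *Hpn* at chr7:31110998-31111247 and *Mst1r* at chr9:107914753-107915002 also lie wholly inside their genes by that annotation. The stretch of *Met* is chr6:17463819-17463848, shown with CACGTG in capitals.
Met window: gggacgaacagaCACGTGctggggcgggta

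The deposited values are counts per gene, whose total per mouse ran from 36056177 to 57298657. Levels are given as CPM, the count of a gene scaled to the size of its library, after TMM normalization, and as RPKM (CPM per kilobase of annotated exon) where genes are compared with one another. Differences between groups were tested with edgeR's quasi-likelihood test over all genes that passed its filter on low counts, with Benjamini-Hochberg adjustment over all of them and a threshold of 0.05. The 9 genes passed that filter in every comparison. Of the marker lists read, that of hepatocytes had the highest sum, with 7 genes between 73591 and 112395 CPM, as the label liver implies. Most of this sum was *Alb*, with group means from 59246 to 78051 CPM. On chow, HGFAC-KO mice had sums from 86367 to 98487 and controls from 74369 to 87972. On HF/HS, HGFAC-KO mice had sums from 84289 to 112395 and controls from 73591 to 91324. Between genotypes, the log2 fold change of *Alb* was 0.205 on chow (adjusted p = 0.801 by edgeR) and 0.395 on HF/HS (adjusted p = 0.331). On each diet, 4 of the 7 markers were above 0 (medians 0.04 and 0.05) and none was called. The part of this difference in the sums in the results below was not tested. Of these 7 markers, *Apoa1* (0.39) and *Tat* (-0.51) were called between diets in controls and *Tat* (-0.75) in HGFAC-KO mice by edgeR, as log2 fold changes. Of all genes, 10.5% and 5.89% were called. In whole liver, fewer cells of a type and less RNA per cell cannot be told apart.

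Between genotypes, *Hgfac* was the single gene of the 9 that passed the test on either diet. On chow, 1 of 9 was called, against 0.00737% of 13571 genes, and on HF/HS, 1 of 9 against 0.0148% of 13544, or 0.00738% called lower and 0.00738% called higher. The median log2 fold change of the 9 genes, HGFAC-KO over control, was 0.05 on chow and -0.07 on HF/HS, beside 0.0031 and -0.0015 over all genes tested.

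Between diets, *Hgfac*, *Hgf* and *Met* were higher on HF/HS in controls, which is 3 of 9 genes against 10.5% of 13525 genes called, 4.93% higher and 5.6% lower. In HGFAC-KO mice, *Hgfac* and *Hgf* were higher, 2 of 9 against 5.89% of 13613 genes, 3.17% higher and 2.73% lower. The median log2 fold change of the 9 genes was 0.0083 in controls and -0.08 in HGFAC-KO mice, with 6 and 4 of the 9 above 0, beside the called genes, which were all higher. Of these calls, that of *Hgfac* in controls remained whichever mouse was left out, and the others lay close to the threshold.

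**Figure D1:**
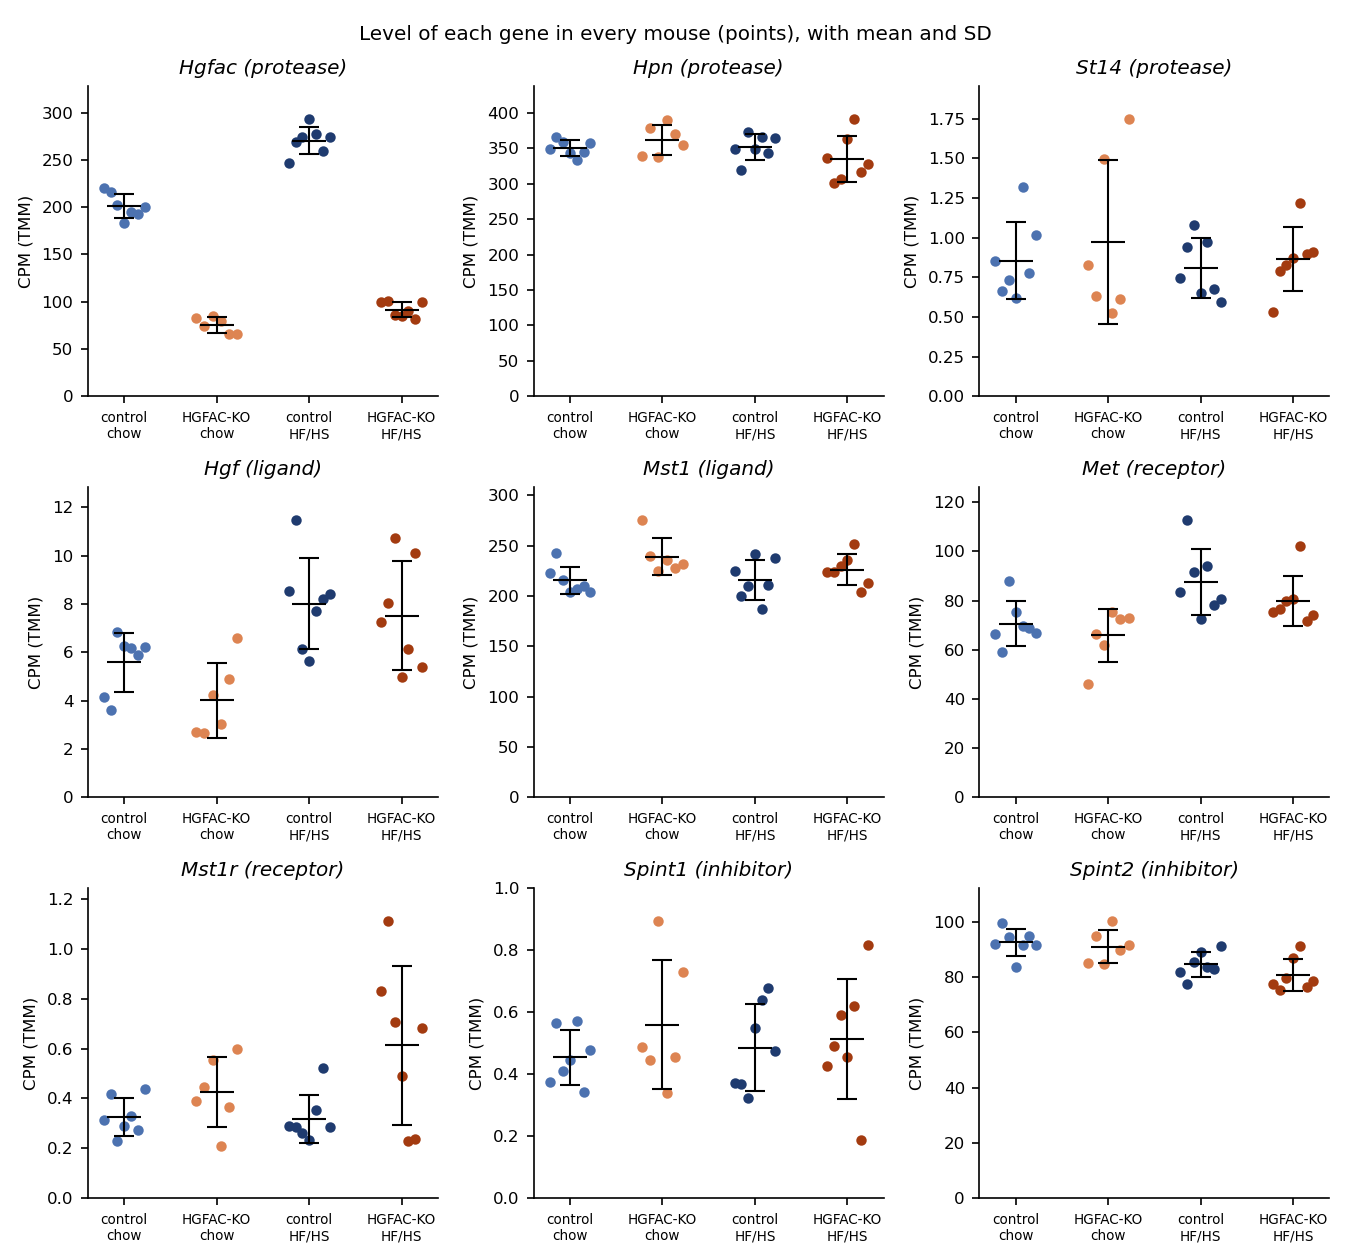
Level of each of the 9 genes in CPM after TMM normalization (vertical axes, each starting at 0) in the 4 groups (horizontal axes). Points are mice, and the bars give the mean and SD over 6 or 7 mice. *Hgfac* separates the genotypes without overlap on both diets, and its controls on HF/HS lie above its controls on chow.

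*Hgfac* was measured at 182.7 to 220 CPM in controls on chow (median 200) and at 246.6 to 292.9 CPM in controls on HF/HS (median 273.9). In HGFAC-KO mice, it ran from 65.6 to 84.8 CPM on chow (median 77.1) and from 81.6 to 100.6 CPM on HF/HS (median 89.7). Every HGFAC-KO mouse was below every control on the same diet, and every control on HF/HS was above every control on chow, while the HGFAC-KO mice of the 2 diets overlapped. Groups that do not overlap were seen for 0.136% of 13932 genes between genotypes on chow, 0.079% on HF/HS and 3.47% between diets in controls, and for 2.98% between diets in HGFAC-KO mice, where *Hgfac* was not among them.

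The *Hgfac* transcript was thus still counted in HGFAC-KO livers, with 2875 to 4712 reads per mouse. Its mean was 37.5% of the control mean on chow (75.5 ± 8.13 against 201.2 ± 13.1 CPM, SD) and 33.9% on HF/HS (91.8 ± 8.04 against 270.4 ± 14.7 CPM, SD). The log2 fold changes were -1.41 (SE 0.07, adjusted p = 3.05e-08 by edgeR) and -1.56 (SE 0.06, adjusted p = 1.66e-10 by edgeR). The exact two-sided permutation test gave p = 0.00117 on chow and p = 0.000583 on HF/HS, the smallest values that these group sizes allow.

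On HF/HS diet, *Hgfac* in controls was 1.34 times its level on chow, a log2 fold change of 0.43 (SE 0.05, adjusted p = 5.47e-05 by edgeR). It stayed below the threshold whichever of the 14 mice was left out, with adjusted p from 7.28e-05 to 0.00025. In HGFAC-KO mice, the remaining transcript was 1.21 times its level on chow, a log2 fold change of 0.29 (SE 0.08, adjusted p = 0.0382 by edgeR), and 6 of 7 HGFAC-KO mice on HF/HS were above every HGFAC-KO mouse on chow.

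The call in HGFAC-KO mice was lost when any 1 of 8 of the 13 mice was left out. It remained without HGFAC-KO replicates 1 or 3 on chow or without replicates 3, 4 or 6 on HF/HS, and adjusted p ran from 0.0309 to 0.0896 over the 13 fits. The difference between genotypes in the change with diet did not pass the test, with an interaction of -0.14 on the log2 scale (SE 0.09, adjusted p = 0.984 by edgeR). None of 13932 genes passed the interaction test with edgeR, DESeq2 or limma voom, and 506 (3.63%), 543 and 513 had an unadjusted p under 0.05.

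**Figure D2:**
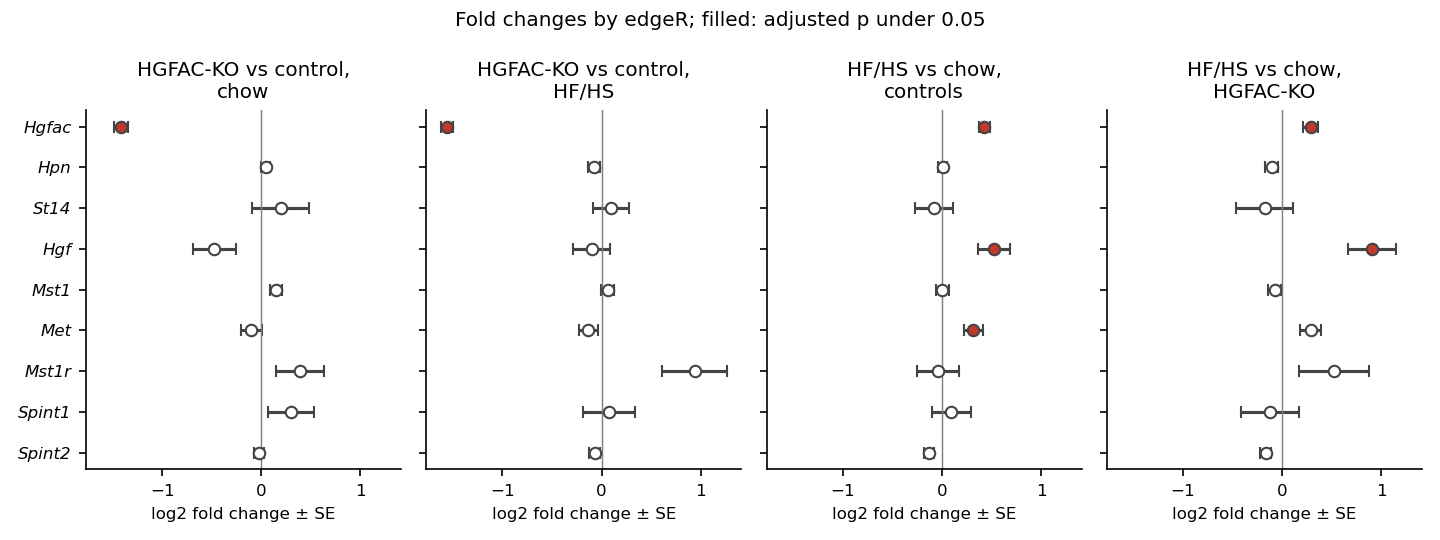
Log2 fold changes of the 9 genes (horizontal axes) by edgeR, with standard errors derived from its F statistic, in the 2 comparisons of genotypes and the 2 of diets. Filled points passed an adjusted p of 0.05. *Hgfac* stands alone at -1.41 and -1.56 between genotypes, and the filled points between diets lie from 0.29 to 0.91.

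*Hpn* (chr7:31098725-31115290, minus strand) encodes hepsin, a transmembrane serine protease of hepatocytes. Its level ran from 333.0 to 365.5 CPM in controls on chow (median 349.4), from 338.0 to 389.2 in HGFAC-KO mice on chow (median 362.2), from 319.9 to 372.2 in controls on HF/HS (median 348.9) and from 301.5 to 390.8 in HGFAC-KO mice on HF/HS (median 327.3). All 4 groups overlapped. The fold changes between genotypes were 0.05 on chow (SE 0.05, adjusted p = 0.854 by edgeR) and -0.08 on HF/HS (SE 0.06, adjusted p = 0.722) on the log2 scale, and those between diets 0.0083 in controls (SE 0.04, adjusted p = 0.932) and -0.11 in HGFAC-KO mice (SE 0.07, adjusted p = 0.363).

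*St14* (chr9:31089402-31131853, minus strand, over a processed pseudogene, Gm16071, on the other strand) encodes matriptase, a transmembrane protease of epithelia, and was near the limit of what these libraries resolve, with 20 to 79 reads per mouse. Group means ranged from 0.809 ± 0.188 CPM in controls on HF/HS to 0.975 ± 0.517 CPM in HGFAC-KO mice on chow (SD). The groups overlapped, the HGFAC-KO mice on chow were the most dispersed with 0.524 to 1.75 CPM, and no comparison passed the test. The adjusted p of *St14* by edgeR was from 0.761 to 0.909 in the comparisons of genotypes and diets.

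*Hgf* (chr5:16553495-16620152, plus strand), the ligand gene of *Met*, was expressed at a few CPM. It ran from 3.61 to 6.83 CPM in controls on chow (median 6.17) and from 5.65 to 11.5 CPM in controls on HF/HS (median 8.23). In HGFAC-KO mice, it ran from 2.68 to 6.59 CPM on chow (median 3.63) and from 4.98 to 10.7 CPM on HF/HS (median 7.26). In controls, 5 of 7 mice on HF/HS were above every mouse on chow, and in HGFAC-KO mice, 4 of 7 were, so the diets overlapped in both genotypes.

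The mean of *Hgf* on HF/HS was 1.44 times that on chow in controls, a log2 fold change of 0.53 (SE 0.16, adjusted p = 0.0479 by edgeR). In HGFAC-KO mice it was 1.87 times, a log2 fold change of 0.91 (SE 0.24, adjusted p = 0.0411 by edgeR). The exact two-sided permutation test gave p = 0.0117 and p = 0.00816, without adjustment over the 36 such tests made on the 9 genes. The difference between these 2 folds did not pass the test, with an interaction of 0.38 (SE 0.30, adjusted p = 0.984 by edgeR).

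Both calls of *Hgf* lay close to the threshold and were lost in most fits that left out 1 mouse. In controls, the call remained only without replicate 3 on chow or without replicates 3 or 4 on HF/HS, was lost without any 1 of the other 11 mice, and had adjusted p from 0.0212 to 0.0929. In HGFAC-KO mice, it remained without replicate 6 on chow or without replicates 4, 5 or 7 on HF/HS, was lost without any 1 of the other 9 mice, and had adjusted p from 0.0123 to 0.0958. The log2 fold change stayed positive throughout, between 0.42 and 0.59 in controls, and between 0.80 and 1.11 in HGFAC-KO mice. The call in controls was also lost with either other filter on low counts, with the replicate number as a block and in a fit of all 27 mice. Its adjusted p reached 0.169 there. That in HGFAC-KO mice was also lost with no filter on low counts (adjusted p = 0.0567 by edgeR).

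On chow, *Hgf* was lower in HGFAC-KO mice than in controls by a log2 fold change of -0.47 (SE 0.22), with an unadjusted p of 0.0453 and an adjusted p of 0.801 by edgeR, and 3 of 6 HGFAC-KO mice lay below every control. The difference did not pass the threshold. On HF/HS, the value was -0.10 (SE 0.19, adjusted p = 0.904). Cell type markers on chow were read beside it, and none of 45 tested was called by edgeR, with 5 at an unadjusted p under 0.05, beside 5.98% of all genes. Of the Kupffer cell and macrophage markers, 0 of 8 had a log2 fold change above 0 (median -0.27), as had 1 of 8 endothelial markers (median -0.21) and 3 of 10 stellate and fibroblast markers (median -0.06). Among the last were *Reln* at -0.29 (SE 0.16, adjusted p = 0.81 by edgeR) and *Lrat* at -0.43 (SE 0.17, adjusted p = 0.801). Their part in the value of *Hgf* was not tested.

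Stellate and fibroblast markers were read beside *Hgf* as a list of 10 genes, all of them measured in every group. Their summed level ran from 212.0 to 302.6 CPM in controls on chow, from 248.4 to 315.6 in controls on HF/HS, from 155.9 to 298.2 in HGFAC-KO mice on chow and from 216.8 to 358.2 in HGFAC-KO mice on HF/HS. Between diets, 9 of 10 had a log2 fold change above 0 in controls (median 0.15) and 8 of 10 in HGFAC-KO mice (median 0.24). In controls, 4 had an unadjusted p under 0.05 by edgeR, *Reln* (0.32), *Cygb* (0.22), *Dcn* (0.16) and *Lrat* (-0.60), beside 25.4% of all genes, and in HGFAC-KO mice 1 had, *Reln* (0.54), beside 22.4%. Of these, *Lrat* in controls, which makes the retinyl esters stored in stellate cells, was the 1 that was called (adjusted p = 0.0273 by edgeR).

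Of 8 Kupffer cell and macrophage markers, 7 were above 0 in each genotype (median 0.20 in controls and 0.55 in HGFAC-KO mice), *Marco* being the exception in both (-1.19 and -0.07). In HGFAC-KO mice, 4 of 8 were called, *Clec4f*, *Cd5l*, *Adgre1* and *C1qa*, by 0.49 to 0.68, and 7 had an unadjusted p under 0.05, beside 5.89% and 22.4% of all genes. In controls, none was called by edgeR and 2 had an unadjusted p under 0.05, *Clec4f* at 0.45 (SE 0.14, adjusted p = 0.0519 by edgeR) and *Marco*, beside 10.5% and 25.4% of all genes. The Kupffer sum lay between 153.6 and 323.1 CPM on chow and between 190.6 and 383.2 CPM on HF/HS in controls, and between 146.8 and 221.1 CPM on chow and between 196.9 and 324.8 CPM on HF/HS in HGFAC-KO mice, so the diets overlapped in both genotypes.

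Of 8 sinusoidal endothelial markers, 6 were above 0 in controls (median 0.30) and 7 in HGFAC-KO mice (median 0.28). The same 4, *Stab2*, *Clec4g*, *Kdr* and *Fcgr2b*, had an unadjusted p under 0.05 in each genotype, at 0.34 to 0.42 in controls and 0.32 to 0.43 in HGFAC-KO mice, where *Stab2* was called (0.42, adjusted p = 0.0124 by edgeR). Of all genes, 25.4% in controls and 22.4% in HGFAC-KO mice had an unadjusted p under 0.05, and 10.5% and 5.89% were called. Their summed level lay between 134.1 and 218.9 CPM on chow and between 158.9 and 265.8 CPM on HF/HS in controls, and between 115.7 and 180.7 CPM on chow and between 149.0 and 226.6 CPM on HF/HS in HGFAC-KO mice. Of the leukocyte markers, *Ptprc* (0.63) was called of 6 tested in HGFAC-KO mice and the neutrophil marker *S100a8* (1.62) of 7 tested in controls, beside the same shares of all genes. In the interaction with genotype, 0 of 46 markers tested passed by edgeR, with 1 at an unadjusted p under 0.05, beside 3.63% of all genes. The part of these cell types in the change of *Hgf* was not tested.

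Of all genes that passed the filter, *Reln* had the highest correlation with *Hgf* over the 27 mice with the group means left in (Pearson r of log2 CPM 0.899, Spearman rho 0.908). *Reln* encodes the secreted protein reelin and is one of the 10 stellate markers. After the group means were removed, r was 0.828 for *Reln* and 0.834 for *Mob1a*. That of *Reln* was from 0.716 to 0.906 within the single groups, and 0.906 without the 2 mice farthest from the median of *Hgf*. *Mob1a* (r = 0.879) and 5330439B14Rik (r = 0.867) came next. *Reln* lies on the same chromosome, 5264301 bases away. These values were picked as the highest of all genes and describe the mice measured here.

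**Figure D3:**
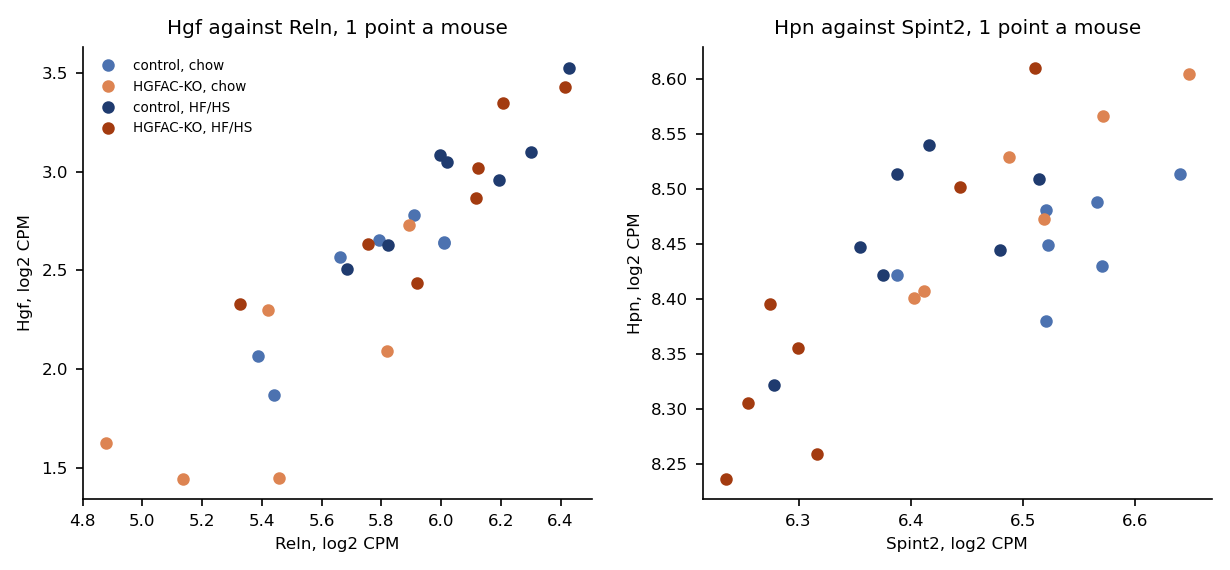
*Hgf* against *Reln* (left) and *Hpn* against *Spint2* (right), both axes in log2 CPM, with 1 point for each of the 27 mice, coloured by group. The axes show values with the group means left in, and the points rise from left to right in both panels. After the group means were removed, r was 0.828 for *Hgf* and *Reln* and 0.801 for *Hpn* and *Spint2*.

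*Mst1* encodes MSP and had the highest mean level per kilobase of annotated exon of the 9 genes. It ran from 204.1 to 242.6 CPM in controls on chow (median 210.5) while HGFAC-KO mice on chow lay between 224.9 and 275.4 CPM (median 234.2). On HF/HS, controls lay between 186.9 and 241.9 CPM (median 210.8), and HGFAC-KO mice between 203.9 and 251.5 CPM (median 224.4). All groups overlapped, and 1 HGFAC-KO mouse on chow lay above every control.

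*Mst1* in HGFAC-KO mice on chow was 1.11 times the control mean, a log2 fold change of 0.15 (SE 0.06), with an unadjusted p of 0.0212 and an adjusted p of 0.801 by edgeR. It did not pass the threshold, nor did the 0.06 on HF/HS (SE 0.07, adjusted p = 0.794). Between diets, the values were 0.0060 in controls (SE 0.06, adjusted p = 0.967) and -0.08 in HGFAC-KO mice (SE 0.06, adjusted p = 0.516). *Mst1* (chr9:108080436-108085003, plus strand) overlaps *Rnf123* on the opposite strand and the microRNA gene *Mir7088*. The libraries were stranded, but the strand setting of the counting is not given in the sources used here, so reads of *Mst1* and *Rnf123* could be shared where the genes overlap.

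*Met* (chr6:17463800-17573980, plus strand) encodes the HGF receptor. It ran from 58.9 to 88.1 CPM in controls on chow (median 68.7) and from 72.5 to 112.7 CPM in controls on HF/HS (median 83.4). In HGFAC-KO mice, it ran from 46.0 to 75.2 CPM on chow (median 69.5) and from 71.9 to 102.1 CPM on HF/HS (median 76.6). The diets overlapped in both genotypes, with 3 of 7 controls and 5 of 7 HGFAC-KO mice on HF/HS above every mouse of their genotype on chow.

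*Met* on HF/HS was 1.24 times its level on chow in controls, a log2 fold change of 0.31 (SE 0.10, adjusted p = 0.0473 by edgeR). In HGFAC-KO mice, the ratio was 1.22 and the log2 fold change 0.29 (SE 0.11), which did not pass (adjusted p = 0.123 by edgeR). The call was made in one genotype and not in the other, but the interaction did not pass either, at -0.03 (SE 0.15, adjusted p = 0.991). The call in controls was kept without replicate 3 on chow or without replicates 4, 6 or 7 on HF/HS and lost without any 1 of the other 10 mice, with adjusted p from 0.0133 to 0.092 and a log2 fold change from 0.25 to 0.38. It was also lost with no filter on low counts and with the replicate number as a block, where adjusted p by edgeR reached 0.108. Between genotypes, *Met* differed by -0.10 on chow (SE 0.11, adjusted p = 0.856) and by -0.13 on HF/HS (SE 0.09, adjusted p = 0.674).

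The genes nearest to *Met* over the 27 mice were *Nr3c1*, which encodes the glucocorticoid receptor (r = 0.923, and 0.893 after the group means were removed), *Tut7* (r = 0.888) and *Hipk1* (r = 0.876).

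*Mst1r* (chr9:107906873-107920383, plus strand) encodes RON, the MSP receptor, known from macrophages and epithelia, and was the least expressed of the 9 in 3 of the 4 groups, with 8 to 52 reads per mouse. It ran from 0.229 to 0.438 CPM in controls on chow (median 0.313), from 0.21 to 0.597 in HGFAC-KO mice on chow (median 0.419), from 0.235 to 0.521 in controls on HF/HS (median 0.287) and from 0.23 to 1.11 in HGFAC-KO mice on HF/HS (median 0.681). On HF/HS, 4 of 7 HGFAC-KO mice (replicates 1, 2, 3 and 7) were above every control, while replicates 5 and 6 had 10 reads each and lay at the low end of the controls.

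The mean of *Mst1r* in HGFAC-KO mice on HF/HS was 1.92 times that of controls, a log2 fold change of 0.94 (SE 0.33), with an unadjusted p of 0.011 and an adjusted p of 0.444 by edgeR. It did not pass the threshold, and the exact permutation test gave p = 0.0548. Over the fits that left out 1 mouse, the log2 fold change was from 0.73 to 1.09 and the adjusted p from 0.151 to 0.672. On chow the value was 0.39 (SE 0.24, adjusted p = 0.82).

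Of the cholangiocyte markers read beside *Mst1r*, *St14* and *Spint1*, 6 of 8 were tested between genotypes and none was called on either diet by edgeR, with 1 at an unadjusted p under 0.05 on each, beside 5.98% and 9.64% of all genes. It was *Sox9* on both, at 0.55 on chow (SE 0.16, adjusted p = 0.801 by edgeR) and 0.78 on HF/HS (SE 0.21, adjusted p = 0.344). On chow, their sum lay between 35.9 and 71.8 CPM in controls and between 49.0 and 88.0 CPM in HGFAC-KO mice, and on HF/HS between 36.6 and 61.4 CPM in controls and between 49.6 and 69.4 CPM in HGFAC-KO mice. Their part in the levels of these genes was not tested.

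*Spint1* (chr2:119237362-119249527, plus strand) encodes HAI-1 and was found at 8 to 37 reads per mouse. Group means lay between 0.455 ± 0.089 CPM in controls on chow and 0.559 ± 0.208 CPM in HGFAC-KO mice on chow (SD). All groups overlapped and no comparison passed the test, with adjusted p by edgeR from 0.818 to 0.951 for *Spint1* in the comparisons of genotypes and diets.

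*Spint2* (chr7:29256323-29281912, minus strand) encodes HAI-2, and unlike *Spint1* it was well expressed. It ran from 83.7 to 99.7 CPM in controls on chow (median 91.9), from 77.5 to 91.4 in controls on HF/HS (median 83.7), from 84.6 to 100.2 in HGFAC-KO mice on chow (median 90.7) and from 75.3 to 91.1 in HGFAC-KO mice on HF/HS (median 78.7). The mice on HF/HS lay lower but overlapped with those on chow, and 4 of 7 controls and 5 of 7 HGFAC-KO mice on HF/HS were below every mouse of their genotype on chow. The log2 fold changes with diet were -0.13 in controls (SE 0.05, adjusted p = 0.0943 by edgeR) and -0.17 in HGFAC-KO mice (SE 0.06, adjusted p = 0.103), neither past the threshold. The exact permutation test gave p = 0.00699 and p = 0.014, without adjustment. In HGFAC-KO mice the call appeared without replicate 5 on HF/HS (adjusted p = 0.0393) and in a fit of all 27 mice (0.0493), where the 8 alternatives ran from 0.0493 to 0.164. Between genotypes, *Spint2* differed by -0.03 on chow (SE 0.05, adjusted p = 0.93) and by -0.07 on HF/HS (SE 0.05, adjusted p = 0.708).

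**Figure D4:**
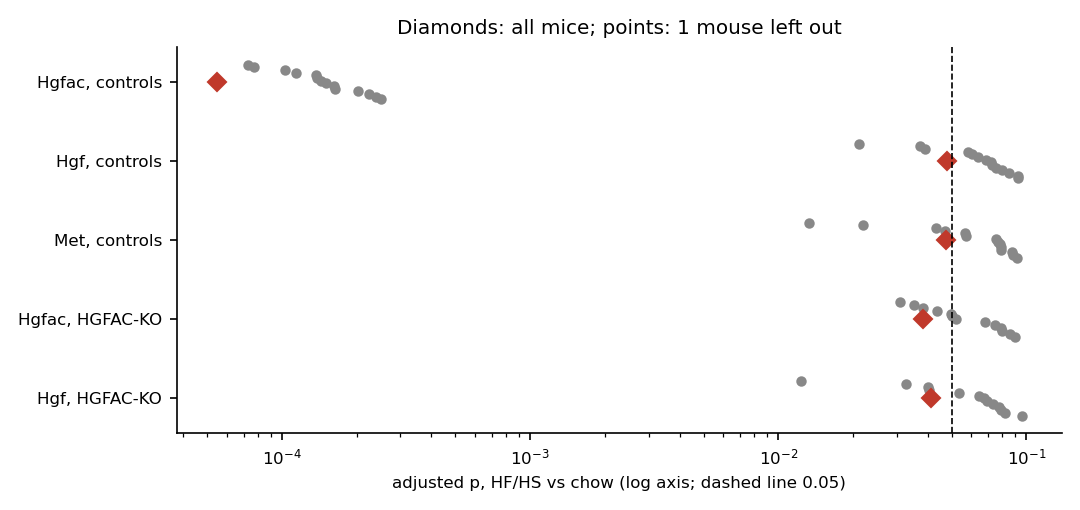
Adjusted p by edgeR of the 5 calls between diets (horizontal log axis, with a dashed line at 0.05), with all mice (diamonds) and with each mouse left out in turn (points). *Hgfac* in controls stays between 7.28e-05 and 0.00025, and the points of the other 4 calls fall on both sides of the line.

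Levels between genes were compared in RPKM. In controls on chow the order was *Mst1* (95.3 ± 6.10), *Hpn* (85.4 ± 2.71), *Hgfac* (59.0 ± 3.83), *Spint2* (20.3 ± 1.07), *Met* (9.19 ± 1.19), *Hgf* (0.777 ± 0.168), *Spint1* (0.165 ± 0.032), *St14* (0.112 ± 0.032) and *Mst1r* (0.065 ± 0.015), each with SD over 7 mice. Neighbours down to *Spint1* did not overlap, while *Spint1* overlapped *St14* and *St14* overlapped *Mst1r*. *Hgf* and the 3 genes below it were thus the least expressed, and *Mst1*, the other ligand gene, the most.

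By mean RPKM, *Hgfac* held place 3 in each of the 4 groups, while its overlap with *Hpn* and *Spint2* differed between them. In controls on HF/HS, its 79.3 ± 4.30 RPKM (SD) overlapped with the 85.8 ± 4.31 of *Hpn*, and in HGFAC-KO mice on chow its level of 22.2 ± 2.38 overlapped with the 19.98 ± 1.32 of *Spint2*. Relative to *Hpn* in the same mouse, *Hgfac* was at 0.691 ± 0.037 in controls on chow and 0.926 ± 0.061 in controls on HF/HS, and at 0.252 ± 0.036 and 0.333 ± 0.046 in HGFAC-KO mice (SD). The RPKM of *Hgfac* in HGFAC-KO mice was computed over all annotated exons, deleted ones included. These exons hold 3410 bases for *Hgfac*, against the 2135 of Hgfac-201. Over the shorter length its RPKM would be higher, so its place, its ratios to *Hpn* and its overlaps depend on the length chosen. *Met* exceeded *Mst1r* by a mean ratio of 115 to 190 in the 4 groups.

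**Figure D5:**
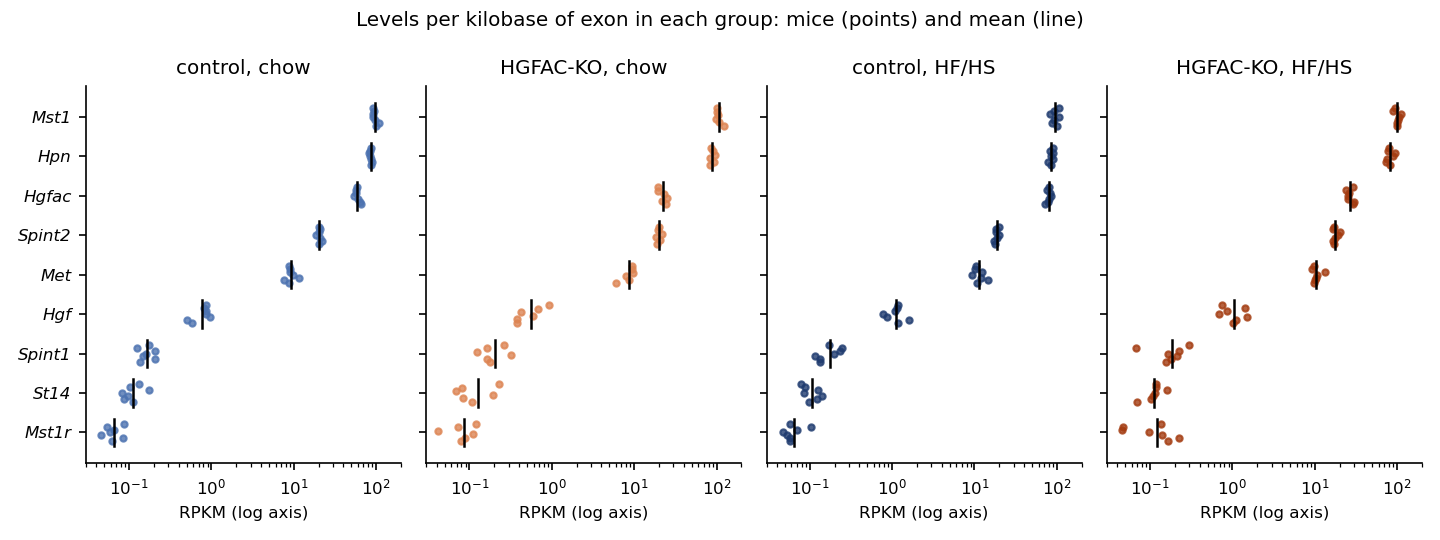
RPKM of the 9 genes (horizontal log axes) in each group, ordered by the mean in controls on chow. Points are mice and the vertical lines are means. *Hgfac* overlaps *Hpn* in controls on HF/HS and *Spint2* in HGFAC-KO mice on chow, and neither of them in the other 2 groups.

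How the 9 genes varied together from mouse to mouse was computed for the 36 pairs after each group's mean was removed. The single pair that passed was *Hpn* and *Spint2*, with Pearson r = 0.801 over 27 mice (permutation p = 3e-05, adjusted 0.00108 over the 36 pairs) and Spearman rho = 0.788 (permutation p = 5e-05, adjusted 0.0018). The sign was the same in the 4 groups, with r from 0.562 to 0.941, and r was 0.733 without the 2 mice farthest from the median. Depth differed between the mice, as given above, and its part in this correlation was not tested. *Hgf* and *Met*, the ligand and its receptor, did not pass.

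The nearest genes of the other members are given with the group means left in, as the highest of all genes. *Spint2* was nearest to 2200002D01Rik (r = 0.933 over 27 mice), which lies 7856 bases from it on the same strand of chromosome 7, and to *Rhbg* (r = 0.925) and *Ces2c* (r = 0.875). *Hpn* was nearest to *Phyhd1* (r = 0.846), *Fam3a* (r = 0.838) and *Aamp* (r = 0.802), and *Mst1* to *Eme1* (r = 0.822), *Snx22* (r = 0.788) and *Bysl* (r = 0.784). Over the 14 controls, *Hgfac* was nearest to *Ogfr* (r = 0.961, and 0.772 after the diet means were removed), *Cyp2d40* (0.956 and 0.602) and *Sra1* (0.952 and 0.73). The genes of low level had as nearest genes *Ehf*, *Scara3* and *Slc5a1* for *St14*, *Etv4*, *Cd63* and *Itgbl1* for *Spint1*, and *Fbxo11*, *Bicra* and *Eid2* for *Mst1r*, with r from 0.659 to 0.712.

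Other genes of the pathway were read from 74 symbols in 6 roles. Between genotypes, none of 69 tested was called on either diet with edgeR, with 6 on chow and 8 on HF/HS at an unadjusted p under 0.05, beside 5.98% and 9.64% of all genes. DESeq2 called 0 and 1 of them and limma voom 0 and 0, the 1 being *Plcg1* on HF/HS, a phospholipase recruited by MET. *Plcg1* had a log2 fold change of -0.23 (SE 0.06, adjusted p = 0.331 by edgeR). The list had a median log2 fold change of 0.00027 on chow and of -0.01 on HF/HS. First by p on chow was *Plxnb1*, a semaphorin receptor that associates with MET, at 0.30 (SE 0.08, adjusted p = 0.801 by edgeR).

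Between diets, 9 of 69 were called in controls, 7 higher and 2 lower, and 7 of 69 in HGFAC-KO mice, 6 higher and 1 lower, beside the 10.5% and 5.89% of all genes given above. At an unadjusted p under 0.05 there were 23 and 17 of them, beside 25.4% and 22.4% of all genes. The median of the list was 0.07 in both genotypes. In the interaction, 0 of 70 passed with edgeR, DESeq2 or limma voom, with 2 at an unadjusted p under 0.05, the co-receptor partner *Itga6* (0.64, SE 0.20, adjusted p = 0.984 by edgeR) and *Dusp6* (0.50, SE 0.23, adjusted p = 0.984).

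Of 10 tested proteases that are reported to activate HGF, MSP or HGFAC, 3 rose with HF/HS in controls and none was called in HGFAC-KO mice, where 1 had an unadjusted p under 0.05. The 3 in controls were *F11*, coagulation factor XI (0.37, SE 0.10, adjusted p = 0.0273 by edgeR), *Klkb1*, plasma prekallikrein (0.33, SE 0.09, adjusted p = 0.028), and *Plau*, urokinase (0.62, SE 0.17, adjusted p = 0.0296). With 1 mouse left out, these calls remained in 10, 10 and 8 of 14 fits. That of *F11* was lost in a fit of all 27 mice (adjusted p = 0.055 by edgeR), that of *Klkb1* with the replicate number as a block (0.086), and that of *Plau* in both (0.0714 and 0.109). In HGFAC-KO mice, the values were 0.21 for *F11* (SE 0.14, adjusted p = 0.41), 0.18 for *Klkb1* (SE 0.08, adjusted p = 0.206) and 0.38 for *Plau* (SE 0.27, adjusted p = 0.427). Of 5 tested plasma protease inhibitors, none was called in any comparison by edgeR, and 0 to 2 had an unadjusted p under 0.05. First by p between diets was *Serpinf2*, the antiplasmin gene, in controls (0.15, SE 0.06, adjusted p = 0.0971), and in HGFAC-KO mice *Serping1*, the C1 inhibitor gene (0.09, SE 0.07, adjusted p = 0.498).

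Among 10 co-receptors and partners of MET, 3 were called in controls and 4 in HGFAC-KO mice, beside 10.5% and 5.89% of all genes. *Nrp1*, neuropilin-1, rose in both genotypes, by 0.53 in controls (SE 0.09, adjusted p = 0.00118 by edgeR) and 0.44 in HGFAC-KO mice (SE 0.12, adjusted p = 0.047). *Sdc1*, the heparan sulfate proteoglycan syndecan-1, fell in both, at -0.29 (SE 0.07, adjusted p = 0.0213) and -0.36 (SE 0.10, adjusted p = 0.0388). *Itga6*, an integrin subunit, fell in controls, at -0.90 (SE 0.13, adjusted p = 0.000284), and was at -0.26 in HGFAC-KO mice (SE 0.15, adjusted p = 0.332). *Egfr* rose in HGFAC-KO mice by 0.61 (SE 0.13, adjusted p = 0.0122), and in controls it was at 0.60 (SE 0.25, adjusted p = 0.153), with an interaction of 0.01 (SE 0.30). *Cd44* rose in HGFAC-KO mice by 0.76 (SE 0.20, adjusted p = 0.0381) and was at 0.20 in controls (SE 0.27, adjusted p = 0.687), with an interaction of 0.56 (SE 0.35, adjusted p = 0.984 by edgeR). The calls in controls and that of *Egfr* remained with any 1 mouse left out, while those of *Nrp1*, *Sdc1* and *Cd44* in HGFAC-KO mice remained in 2, 3 and 5 of 13 fits. Under the 8 other alternatives, the calls in controls and that of *Sdc1* in HGFAC-KO mice passed each time. In HGFAC-KO mice, the call of *Egfr* was lost in a fit of all 27 mice (adjusted p = 0.0804 by edgeR). That of *Cd44* was lost there (0.0658), with no filter on low counts (0.052) and with the replicate block (0.122), and that of *Nrp1* with no filter (0.0587) and with the block (0.0647).

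Of 24 adaptors and kinases, only *Pik3r1*, the regulatory subunit of PI3-kinase, was called, in controls (0.32, SE 0.08, adjusted p = 0.022 by edgeR), beside 10.5% of all genes. It was kept in 13 of 14 fits with 1 mouse left out and lost with the replicate block (adjusted p = 0.0887 by edgeR), and in HGFAC-KO mice *Pik3r1* was at 0.20 (SE 0.10, adjusted p = 0.275). Of 10 negative regulators, *Ranbp10* rose in both genotypes, by 0.47 in controls (SE 0.07, adjusted p = 0.000401) and 0.43 in HGFAC-KO mice (SE 0.07, adjusted p = 0.00256), in every fit with 1 mouse left out. *Lrig1*, which promotes receptor degradation, rose by 0.29 in controls (SE 0.08, adjusted p = 0.0272), was kept in 10 of 14 fits with 1 mouse left out and was lost with the replicate block (0.0609). In HGFAC-KO mice, *Lrig1* was at 0.28 (SE 0.09, adjusted p = 0.0706 by edgeR), with an interaction of -0.01 (SE 0.12). Of 10 tested transcripts that ERK signalling raises, none was called in controls, and 2 rose in HGFAC-KO mice, beside 10.5% and 5.89% of all genes called. The median of the list was 0.38 in controls and 0.26 in HGFAC-KO mice. At an unadjusted p under 0.05 were 25.4% of all genes in controls. The 3 with an unadjusted p under 0.05 in controls were *Dusp6* at -0.46 (SE 0.15, adjusted p = 0.0647 by edgeR), *Spry4* at 0.48 (SE 0.17, adjusted p = 0.0838) and *Spry2* at 0.41 (SE 0.19, adjusted p = 0.196). Those called in HGFAC-KO mice were *Ccnd1*, cyclin D1, by 0.74 (SE 0.16, adjusted p = 0.015) and *Spry4*, a feedback inhibitor, by 0.88 (SE 0.20, adjusted p = 0.0163), both in every fit with 1 mouse left out. In controls, *Ccnd1* was at 0.35 (SE 0.23, adjusted p = 0.375), and no gene of the list passed the interaction test, as given above.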

How the data were processed

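The authors captured liver mRNA, made stranded libraries, aligned the reads to GRCm38 (mm10) and counted them with featureCounts 1.6.3, and they deposited raw counts per gene in 1 table, without normalization. Of its 27179 rows, 3886 name no gene. These held 4.13% to 12.1% of a library and were left out. The 89 symbols on more than 1 row were summed. Columns were matched to the mice by name, and the closest mice of a group differed by more than sampling noise (chi-square of 17.7 per gene). Counts were tested with edgeR 4.0.16 in R 4.3.3 (TMM, filterByExpr with a minimum count of 10 and a minimum total of 15, robust quasi-likelihood fit), which was tested on simulated data. Each comparison used its own 2 groups, and the interaction all 27 mice. The SE of a log2 fold change was taken as its absolute value over the square root of the F statistic of the edgeR test. Log2 CPM used a prior count of 2. Correlations used 100000 permutations within groups (Python 3.11.15, numpy 2.4.6). Exon lengths come from GENCODE M21. Depth leaves the genes under 1 CPM with few reads.

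The 9 genes and the lists were chosen with earlier results of these data known. Named were all 9 genes, the other pathway genes past the threshold (at most 5 per role and comparison), up to 2 with the smallest p for roles with none, and the 3 genes most like each of the 9. The markers and *Plcg1* were named after their values were seen. Alternatives were DESeq2 1.42.0, limma 3.58.1 voom, 2 other filters on low counts, upper quartile and RLE normalization, the replicate number as a block, all 27 mice in 1 fit, and leaving out each mouse. Those for the other pathway genes were added after seeing the data.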

Additional observations from a re-analysis of the deposited data

Results flagged for a closer look

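Of the 36 combinations of 9 genes and 4 groups, 3 held a mouse that stood apart from the rest of its group by Dixon's test, which flags about 1 in 20 groups by chance. *Mst1* was at 275 CPM in HGFAC-KO replicate 1 on chow, against 225 to 239 CPM in the other 5 mice. *Met* was at 102 CPM in HGFAC-KO replicate 5 on HF/HS, against 71.9 to 80.5 CPM in the other 6. *Mst1r* was at 0.521 CPM in control replicate 6 on HF/HS, against 0.235 to 0.355 CPM in the other 6.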

How the results depend on the processing

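The lower level of *Hgfac* in HGFAC-KO mice on both diets, and its higher level on HF/HS in controls, passed under the 8 alternatives run and with each mouse left out. Of the other calls between diets, *Hgf* in controls passed in 4 of 8 alternatives, *Met* in controls in 6 of 8, *Hgfac* in HGFAC-KO mice in 6 of 8 and *Hgf* in HGFAC-KO mice in 7 of 8. In controls, 1 of the 9 genes was called with no filter on low counts. In HGFAC-KO mice, 1 was called with no filter and 1 with upper quartile normalization. Leaving out 1 mouse gave 1 to 3 in controls and 0 to 2 in HGFAC-KO mice. Replicate numbers did not pair the mice (correlations of same-numbered deviations from -0.252 to 0.369). With the replicate number as a block, 1 of the 9 was called in controls (*Hgfac*), 1 in HGFAC-KO mice (*Hgf*) and 1 in each comparison of genotypes, with 774 and 602 genes called between diets. DESeq2 called 13 genes between genotypes on chow, 55 on HF/HS and 1401 between diets in HGFAC-KO mice, and a fit of all 27 mice called 1 on HF/HS. With 1 mouse left out, genes called on HF/HS between genotypes ran from 2 to 11 (11 without HGFAC-KO replicate 5, 5 without control replicate 7), and between diets from 976 to 1780 in controls and from 467 (without HGFAC-KO replicate 2 on chow) to 950 in HGFAC-KO mice. The causes were not tested.

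Directions turned only for values that were not called. *Mst1* between diets in controls was at -0.00256 with upper quartile normalization. With 1 mouse left out, log2 values ran from -0.0222 to 0.0379 for *Mst1*, -0.0059 to 0.0355 for *Hpn*, -0.183 to 0.0543 for *Mst1r* and -0.155 to 0.0599 for *St14* between diets in controls. In HGFAC-KO mice they ran from -0.301 to 0.0776 for *St14* and -0.272 to 0.0498 for *Spint1*. Between genotypes, they ran from -0.0581 to 0.332 for *St14* on chow, and on HF/HS from -0.00702 to 0.178 for *St14*, -0.0706 to 0.215 for *Spint1* and -0.206 to 0.00946 for *Hgf*. In the interaction, they ran from -0.235 to 0.153 for *St14* and -0.111 to 0.0406 for *Met*. Few reads limit *St14*, *Spint1* and *Mst1r*.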
